A study of Rattus norvegicus with 18 samples.

Results

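The adrenal gland of the stroke-prone spontaneously hypertensive rat (SHRSP) was compared between 3 and 6 weeks of age, from 3 arrays labelled SHRSP 6w against 3 labelled SHRSP 3w. These 6 arrays were chosen by their strain and age labels among 18 in all. The other 12 arrays measured adrenal glands of the Wistar-Kyoto rat (WKY), which is normotensive, and of the spontaneously hypertensive rat (SHR), the strain from which SHRSP was bred, at the same ages and again with 3 arrays per group. All animals were untreated, and the labels call the 3 samples of a group biological replicates. The labels used here give neither the sex of the animals nor how many glands went into a sample, so p-values measure the spread between these samples. Over all arrays 20797 genes were tested. Of these, 345 were kept apart because the difference between the arrays labelled SHRSP and SHR was called at both ages with opposite signs.

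The adrenal cortex makes steroid hormones in layers. The outer zona glomerulosa makes aldosterone, which acts on salt balance and blood pressure, and the inner layers make corticosterone, the main glucocorticoid of the rat, under control of the pituitary hormone ACTH. The medulla consists of chromaffin cells, which make adrenaline and noradrenaline. Between weaning and adolescence the rat adrenal still grows, and hypertension develops in SHR and SHRSP over the following weeks.

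Each array measured labelled RNA in 1 colour, and a level below is the log2 processed signal minus the log2 of the 75th percentile of that array, so that 0 is the level of a rather bright gene. The 75th percentile lay between 2111 and 2602 signal units on the 6 SHRSP arrays, where 81.0% to 83.9% of spots were well above background and 0 were saturated. A change is the difference of group means on this scale (n = 3 against 3), with limma's standard error (SE). This SE rests on the spread within all 6 groups of the 18 arrays, so it can differ from the spread of the SHRSP arrays alone. A gene was called where limma's p, adjusted by Benjamini-Hochberg over all genes tested, was under 0.05. The 18 arrays lay on 5 slides read on 3 days. Slide 3 was the only slide with SHRSP arrays of both ages, 1 of each, and within it 6016 of 6020 called genes with a value had the same sign as in the whole comparison. Both arrays are also part of the whole comparison, in which these genes were called, so this agreement is no test of a slide effect. The steroid enzymes that define the cortex and the enzymes of the medulla were bright at both ages. Cyp21a1, the 21-hydroxylase of the cortex, read 7.88, 7.97 and 8.16 at 3 weeks and 7.91, 7.91 and 7.76 at 6 weeks. Th, the tyrosine hydroxylase of the medulla, read 4.41, 4.59 and 4.67 at 3 weeks and 4.53, 4.09 and 4.26 at 6 weeks. In whole glands, fewer cells of a type and less RNA per cell cannot be told apart.

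The genes kept apart come first, since they bear on what the strain labels stand for. Several genes with a level that was nearly on or off in one of the hypertensive strains had the 3-week pattern of one label and the 6-week pattern of the other. The probes of the 4 genes with the most familiar functions are shown to identify what was measured, as the first 30 of their 60 bases. By the annotation of the array on build rn4, the probe of Vegfb lies at chr1:209657830-209657889 (minus strand), that of Agtrap at chr5:165154364-165154423 (minus strand), that of Ephx2 at chr15:45535737-45538220 (minus strand, across an intron) and that of Serpinc1 at chr13:76562664-76562723 (plus strand).
Vegfb: aagccttcagtttgatcttcaccaaatgga
Agtrap: agaagacaagaagcccaagatgttttctcg
Ephx2: ggctttcgtgttctagctatagacatgaaa
Serpinc1: gcaccttttcctatctcggtgtttgttaat

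Vegfb encodes a growth factor of the vascular endothelial growth factor family. It read 0.43, 0.60 and 0.52 on the SHRSP arrays of 3 weeks and -9.97, -9.67 and -9.18 on those of 6 weeks, where no array was well above background. The level at 6 weeks was thus at least 362-fold lower, a bound set by the dimmest signals well above background. On the arrays labelled SHR the order was turned, with -9.46, -10.01 and -9.35 at 3 weeks and 0.73, 0.67 and 0.64 at 6 weeks. On the WKY arrays Vegfb stayed between 0.20 and 0.69 at both ages.

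Agtrap, whose product binds the angiotensin II type 1 receptor and promotes its internalization, went the other way. It read -4.83, -4.81 and -5.21 on the SHRSP arrays of 3 weeks and 0.62, 0.63 and 0.50 on those of 6 weeks. The arrays labelled SHR read 0.11, -0.10 and -0.28 at 3 weeks and -4.41, -4.74 and -5.15 at 6 weeks. So the low level was on the SHRSP arrays at 3 weeks and on the SHR arrays at 6 weeks, with no overlap between low and high arrays. Ephx2, the soluble epoxide hydrolase that breaks down vasodilator fatty acid epoxides, read -5.63, -7.03 and -6.73 in SHRSP at 3 weeks and -3.77, -3.74 and -3.97 at 6 weeks. In SHR it read -3.41, -2.98 and -2.97 at 3 weeks and -8.38, -8.34 and -9.0 at 6 weeks. Serpinc1, which encodes antithrombin, read -7.07, -3.63 and -8.35 in SHRSP at 3 weeks, where 2 of 3 arrays were well above background, and 3.99, 4.15 and 4.18 at 6 weeks. Hba-a3, a haemoglobin alpha chain, was not well above background on any SHRSP array of 3 weeks and read -2.0, -1.65 and -2.29 at 6 weeks, at least 55.2-fold higher. Zfp597, an imprinted zinc finger gene, read -1.98, -1.99 and -1.89 at 3 weeks and -4.71, -4.80 and -4.85 at 6 weeks.

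**Figure D1:**
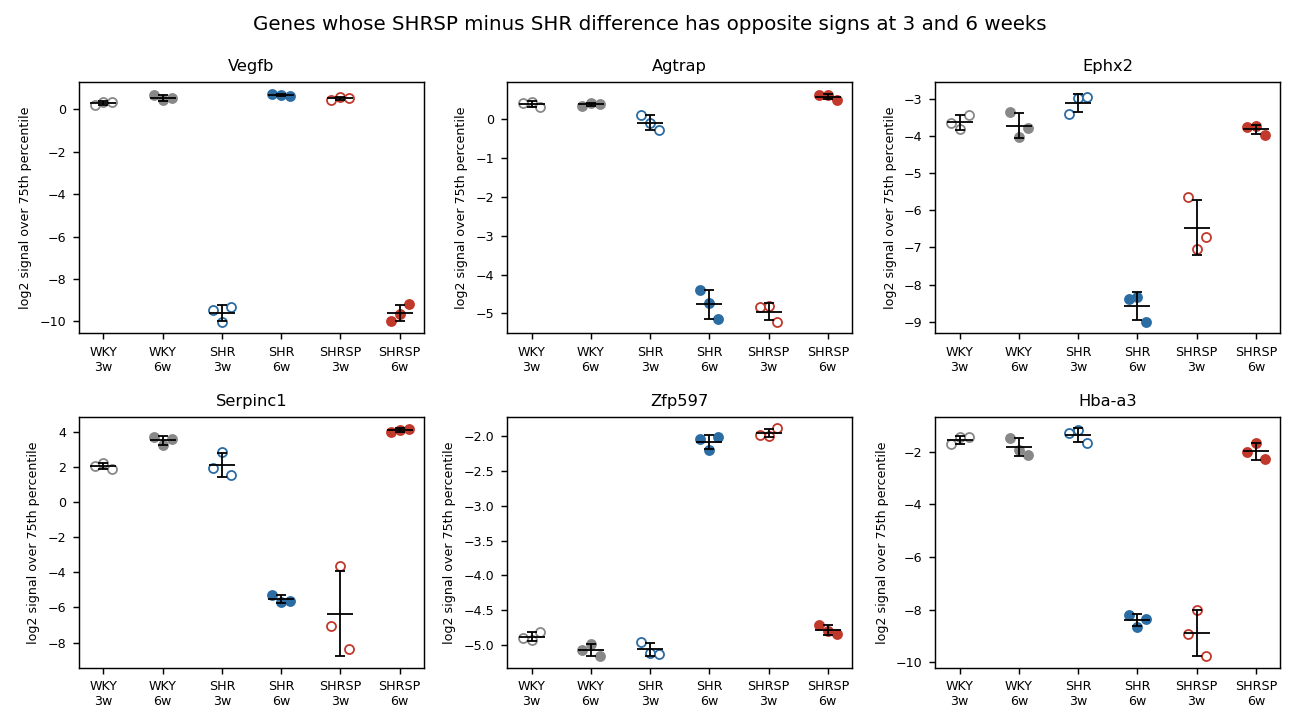
Level (log2 signal over the 75th percentile of the array, vertical axis) of Vegfb, Agtrap, Ephx2, Serpinc1, Zfp597 and Hba-a3 in each group of 3 arrays; open points are 3 weeks, filled points 6 weeks, and bars the mean ± SD. In each panel the arrays labelled SHRSP and SHR exchange places between the ages, as in Vegfb, which lies at 0.43 to 0.60 in SHRSP at 3 weeks and at -9.97 to -9.18 at 6 weeks.

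Over all genes, the difference between the arrays labelled SHRSP and SHR was called for 1650 genes at 3 weeks (7.93% of those tested) and 3108 at 6 weeks (14.9%). It was called at both ages for 732 genes, with opposite signs for the 345 kept apart (1.66%) and the same sign for 387. Among the 100 genes that also differed at least 2-fold at both ages, 69 had opposite and 31 the same sign. Rsph9, a radial spoke protein of cilia, was the gene with a symbol just inside the threshold, with -0.46 at 3 weeks and 0.75 at 6 weeks. Proser1 was just outside it, with 0.47 at 3 weeks and -0.31 at 6 weeks.

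The rule asks for SHRSP minus SHR differences of opposite sign at 3 and 6 weeks. Opposed and larger age changes under these labels thus follow in part from the rule itself. The 345 genes changed with age in opposite directions under these labels in 303 cases. Their median size of change between 3 and 6 weeks was 0.71 on the arrays labelled SHRSP, 0.69 on those labelled SHR and 0.19 in WKY, against 0.25, 0.29 and 0.20 over all genes tested. Between the arrays labelled SHRSP at 6 weeks and those labelled SHR at 3 weeks, the median size of the difference of the 345 genes was 0.26, beside 0.25 over all genes. A strain difference that turns over between 3 and 6 weeks and an exchange of the names SHR and SHRSP at one age cannot be told apart from these arrays. The changes below are therefore given as labelled, followed where it matters by the change averaged over SHR and SHRSP, which is the same whichever of these names a group carries, and by the difference of the arrays labelled SHRSP 6w from those labelled SHR 3w. As labelled, 112 of the 345 were called higher and 182 lower at 6 weeks, beside background shares of 10.5% and 18.4% of the genes tested. The rule used the same arrays, so these counts and the medians above are a description.

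Other members of the group with large changes were Rai2 (3.27), Cbs (3.12) and Uts2 (2.97) among those higher at 6 weeks. Cbs makes cystathionine from homocysteine, and Uts2 encodes urotensin 2, a vasoactive peptide. Lower at 6 weeks were Rgs11 (-2.95), a regulator of G protein signalling, Nfe2l3 (-2.94), a bZIP transcription factor, and the methyltransferase gene Mettl2 (-2.60). Among the gene lists described below, Stard4, a carrier of cholesterol between membranes, was kept apart as well, with a change of -2.20 in SHRSP and 2.97 in SHR.

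Across all tested genes, 6022 (29.0%) were called between the SHRSP arrays of 3 and 6 weeks, 2186 higher (10.5%) and 3836 lower (18.4%) at 6 weeks. Without the genes kept apart the counts were 2074 higher and 3654 lower. At least 2-fold changes were called for 450 higher and 863 lower genes. The change averaged over SHR and SHRSP was called for 7430 genes (35.7%), and the difference of the arrays labelled SHRSP 6w from those labelled SHR 3w for 5832 (28.0%). The same contrast of ages was called for 6096 genes in SHR (29.3%) and 2561 in WKY (12.3%). The share of calls that were higher rests on the scaling, at 36.3% here, 49.8% after quantile normalization and 51.3% with each array scaled to its median. The median change of all tested genes was -0.087, and the list medians below are to be read beside it, as the counts of each list are beside the 10.5% called higher and 18.4% called lower over all genes. List counts and medians include genes kept apart, at most 2 in a list, unless stated otherwise.

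**Figure D2:**
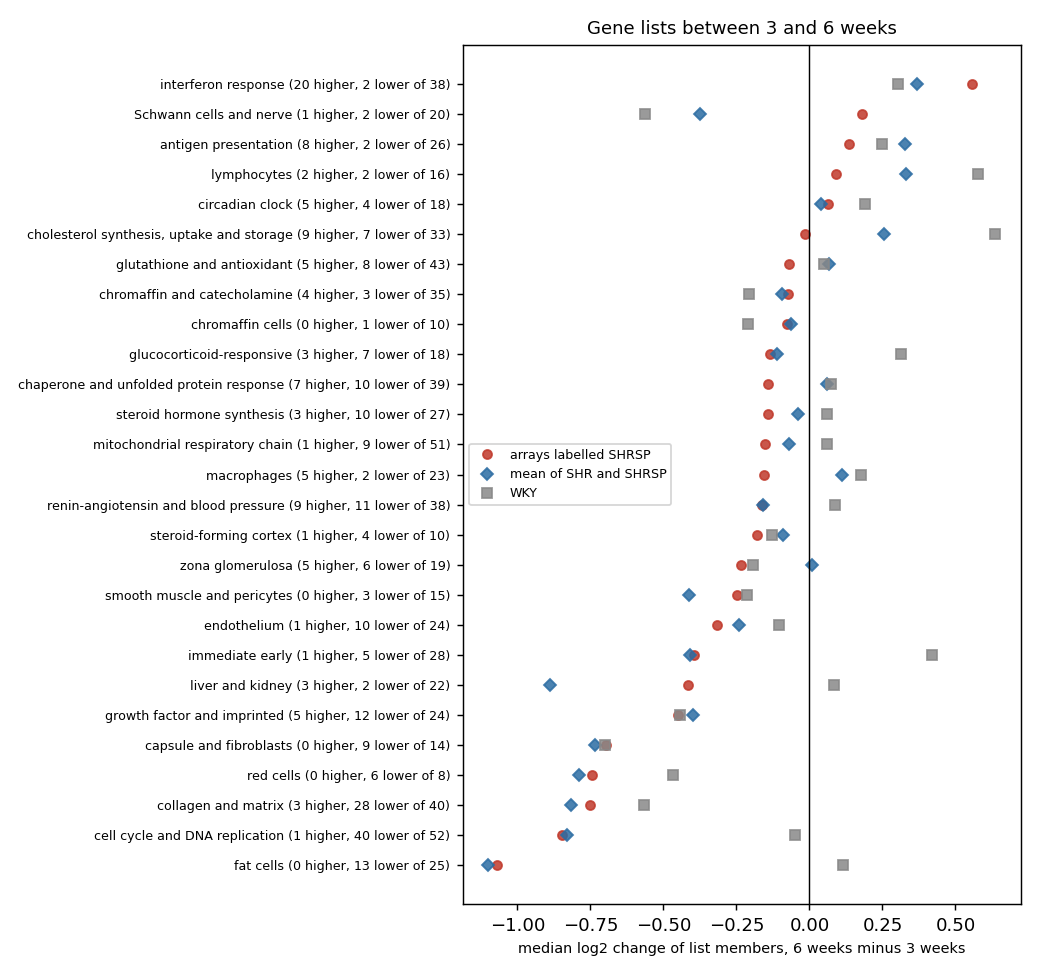
Median log2 change from 3 to 6 weeks (horizontal axis) of 27 gene lists, in the arrays labelled SHRSP (circles), averaged over SHR and SHRSP (diamonds) and in WKY (squares); the names give how many tested members were called higher and lower in SHRSP. Fat cell, cell cycle and matrix genes lie lowest in SHRSP at -1.07, -0.85 and -0.75, and interferon response genes highest at 0.56.

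Among the genes not kept apart, the 10 largest falls with no overlap between the ages began with Akr1c3 and Cdh1. Akr1c3, named Akr1c18 on the array and encoding the 20-alpha-hydroxysteroid dehydrogenase that inactivates progesterone, read 1.42, 1.31 and 0.53 at 3 weeks. At 6 weeks it read -9.24, -9.99 and -9.45, with no array well above background, so that it was at least 538-fold lower (adjusted p = 1.87e-09, limma). It was called lower at 6 weeks in WKY and SHR as well, where it was well above background at 6 weeks on 2 and 0 of 3 arrays, so that the size of these falls is not given. Its relative Akr1c14, a 3-alpha-hydroxysteroid dehydrogenase, read -1.13, -1.02 and -1.51 at 3 weeks and -6.14, -6.33 and -5.31 at 6 weeks, a change of -4.71 ± 0.32 (SE). The probes of Akr1c3 (chr17:77284120-77284179, plus strand, rn4) and of Cdh1, the next largest fall among the genes not kept apart (chr19:36511853-36511912, plus strand, rn4), begin as follows. Akr1c genes are close relatives, and cross-hybridization between them was not tested.
Akr1c3: cagatgacatggaaattttagataacctgg
Cdh1: ttgctgtactcacataattttggaagcaaa

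Cdh1 encodes E-cadherin, an adhesion protein of epithelial cells. It read 1.70, 1.27 and 1.0 at 3 weeks and -5.57, -6.05 and -5.91 at 6 weeks, a change of -7.17 ± 0.51 (SE, adjusted p = 4.31e-07, limma). All SHRSP arrays of 6 weeks were well above background and far under those of 3 weeks. In WKY the change of Cdh1 was -4.17, and the difference of -3.0 between these changes passed the test (adjusted p = 0.018, limma). In SHR the change of Cdh1 was -5.87, not shown to differ from that in SHRSP (adjusted p = 0.255, limma). Sfrp4, a secreted inhibitor of Wnt signalling, read -0.42, 0.07 and 0.14 at 3 weeks and -5.09, -5.43 and -6.03 at 6 weeks. Its change of -5.45 ± 0.40 (SE) was larger than that in WKY of -2.08 (adjusted p of the difference = 0.00235, limma). The change of Sfrp4 in SHR, -5.18, was not shown to differ from that in SHRSP (adjusted p = 0.771, limma). Sult1e1, the estrogen sulfotransferase, was at least 21.4-fold lower at 6 weeks, and Sbk2, a predicted kinase, at least 8.59-fold lower. The further large falls were those of Myo16, an unconventional myosin (-3.84), the secreted phospholipase Pla2g2a (-3.82), Ubd, a ubiquitin-like modifier (-3.53), and Lgi2, which was at least 3.70-fold lower. Myo16 and Pla2g2a changed by -0.74 each in SHR, and both differences passed the test (adjusted p = 0.0148 and 0.0255, limma).

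The largest rises among the genes not kept apart included those of Cyp4f4, Slc9a3, Olah and Spp1. Cyp4f4, a fatty acid hydroxylase of the cytochrome P450 family, read -6.56, -6.10 and -6.65 at 3 weeks and -0.65, 0.19 and -1.46 at 6 weeks, a change of 5.79 ± 0.73 (SE, adjusted p = 5.26e-05, limma). It rose in WKY as well, by 4.66, from a 3-week level there that was well above background on 1 of 3 arrays. Olah, a thioesterase that releases medium-chain fatty acids, read -4.35, -4.39 and -4.66 at 3 weeks and -0.29, -0.43 and -0.51 at 6 weeks, a change of 4.06 ± 0.28 (SE, adjusted p = 3.49e-07, limma). For both genes every array of 6 weeks was above every array of 3 weeks.

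Cyp4f4 is also known from liver and kidney. Of 22 tested markers of these organs, 3 were called higher and 2 lower, with a median of -0.42. Without the 2 markers kept apart 1 was higher and 2 lower, with a median of -0.48. Their summed level (log2) was 2.66 to 3.36 at 3 weeks and 4.30 to 4.45 at 6 weeks, and Serpinc1, which was kept apart, was the brightest of them at 6 weeks. The defining liver marker Alb had a change of -1.49 (adjusted p = 0.502, limma). The SHR array of replicate 2 at 3 weeks stood apart with a summed level of 7.15. This array does not enter the levels of the SHRSP arrays or the size of their changes. It enters every comparison that uses SHR at 3 weeks, the averages over SHR and SHRSP included. Through the spread shared by all groups it also enters the SE and adjusted p of the changes in SHRSP. The part of these organs in the result was not tested.

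Spp1 encodes osteopontin, a secreted phosphoprotein. It read 2.46, 2.65 and 2.70 at 3 weeks and 5.81, 6.39 and 5.78 at 6 weeks, a change of 3.39 ± 0.16 (SE, adjusted p = 1.37e-08, limma). The change was 2.99 in SHR and 1.08 in WKY, and the difference from WKY of 2.31 passed the test (adjusted p = 7.41e-05, limma). Hpx, the haem-binding protein haemopexin, rose by 3.22 ± 0.21 (SE), from -0.53, -0.38 and -0.30 to 2.67, 3.21 and 2.58, so that every array of 6 weeks was above every array of 3 weeks. The sodium-proton exchanger Slc9a3 rose by 4.95 and the complement protease Masp1 by 3.34, both from 3-week levels that were well above background on 1 of 3 arrays. Saxol1, Iqch and Spaca1 were not well above background at 3 weeks and were at least 8.37-fold, 3.62-fold and 2.06-fold higher at 6 weeks. Of all groups, Spaca1 was well above background on all 3 arrays only in SHRSP at 6 weeks, which is why it was tested.

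**Figure D3:**
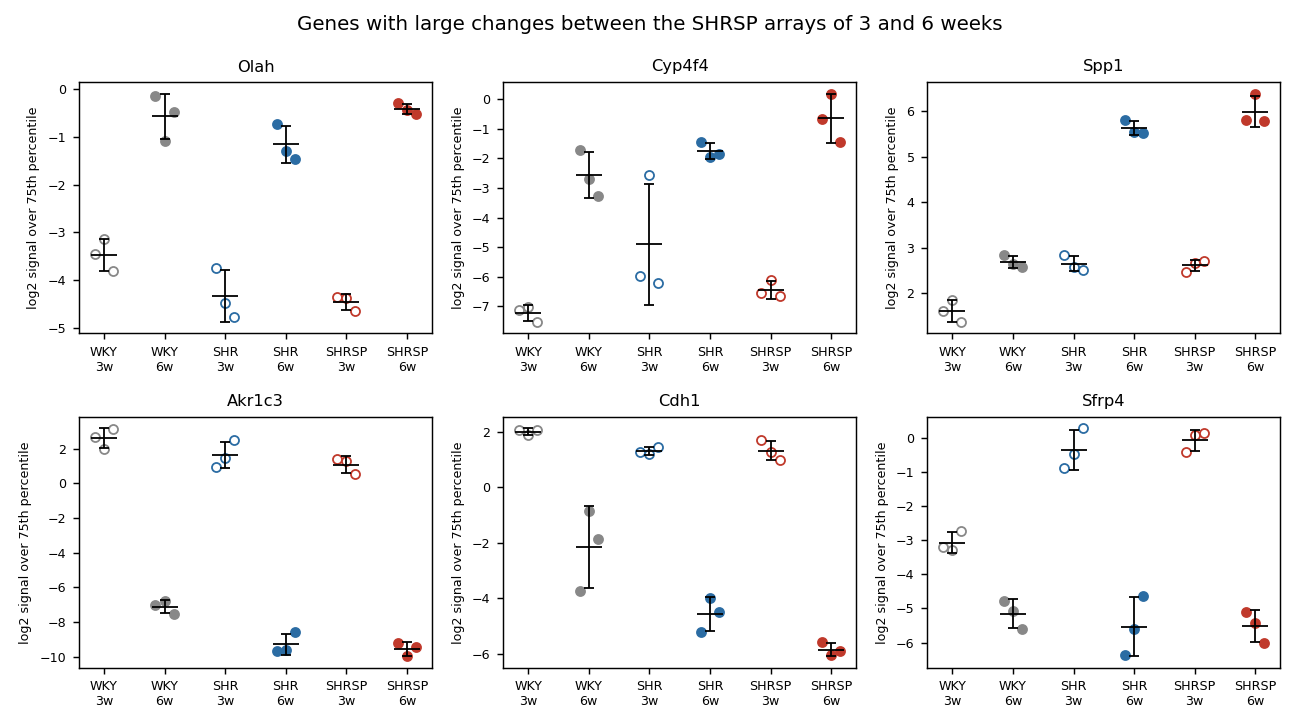
Level (log2 signal over the 75th percentile of the array, vertical axis) of Olah, Cyp4f4, Spp1, Akr1c3, Cdh1 and Sfrp4 in each group of 3 arrays; open points are 3 weeks, filled points 6 weeks, and bars the mean ± SD. In SHRSP the ages do not overlap in any of the 6 panels, and Akr1c3 drops from 1.42, 1.31 and 0.53 to -9.24, -9.99 and -9.45.

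Of 27 tested genes of steroid hormone synthesis 3 were called higher (11.1%) and 10 lower (37%) as labelled, with a median of -0.14. Averaged over SHR and SHRSP 8 were higher and 9 lower, beside 15.5% and 20.2% of all genes tested, with a median of -0.039. Cyp11b2, the aldosterone synthase of the zona glomerulosa, read 4.91, 4.66 and 4.77 at 3 weeks and 3.62, 3.36 and 3.93 at 6 weeks, a change of -1.14 ± 0.13 (SE, adjusted p = 1.7e-05, limma). Averaged over SHR and SHRSP the change was -0.81, and in WKY -1.49. Cyp11b1, the 11-beta-hydroxylase that completes corticosterone, fell by 0.37 on the log2 scale, from 6.99, 6.97 and 7.04 to 6.70, 6.56 and 6.63 (adjusted p = 0.00412, limma). Against the arrays labelled SHR 3w the difference of Cyp11b1 was -0.17 and did not pass the test (adjusted p = 0.154, limma), nor did the change with each array scaled to its median (adjusted p = 0.0835, limma). Over all alternatives this p ran from 0.00153 to 0.154 (limma). Both genes had no overlap between the ages as labelled. Cyp11b1 to Cyp11b3 are near-identical copies, and the array may not separate them fully.

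Among the regulators and side branches of the pathway, Nr0b1 and Srd5a1 had the largest called changes. Nr0b1, which encodes DAX1, a repressor of steroid synthesis genes, read 1.58, 1.34 and 0.85 at 3 weeks and -0.49, -0.62 and -0.47 at 6 weeks, a change of -1.78 ± 0.21 (SE, adjusted p = 2.42e-05, limma). Nr5a1, the steroidogenic factor that activates these genes, changed by -0.72 ± 0.18 (SE), and Mrap, which brings the ACTH receptor to the cell surface, by -0.61. Srd5a1, the 5-alpha-reductase that reduces corticosterone and progesterone, read 0.25, 0.04 and 0.04 at 3 weeks and -1.02, -1.22 and -1.10 at 6 weeks. Cyp17a1 (-0.92), Hsd17b1 (-0.56), Cyp11b3 (-0.55) and Fdx1 (-0.34), the electron donor of the mitochondrial enzymes, were the other genes that fell. Hsd3b2, a 3-beta-hydroxysteroid dehydrogenase, rose from -0.63, -0.44 and -0.05 to 0.82, 0.33 and 0.43 (0.89 ± 0.18, SE, adjusted p = 0.00173, limma). Mc2r, the ACTH receptor, rose by 0.46 and Por, the electron donor of microsomal P450 enzymes, by 0.42.

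Star, Cyp11a1 and Cyp21a1 did not pass the test as labelled. Star, which carries cholesterol into mitochondria, read 5.99, 5.88 and 6.12 at 3 weeks and 6.18, 6.16 and 6.14 at 6 weeks (0.17, adjusted p = 0.163, limma). It was called higher when averaged over SHR and SHRSP (0.48, adjusted p = 2.62e-05, limma), against the arrays labelled SHR 3w (0.58, adjusted p = 0.000153, limma) and after quantile normalization (adjusted p = 0.0104, limma). Over all alternatives this p ran from 2.62e-05 to 0.465 (limma). Star rose by 0.80 in SHR and 0.58 in WKY, and its change in SHRSP was smaller than in either (adjusted p = 0.00337 and 0.0421, limma). Cyp11a1, which makes pregnenolone from cholesterol, had a change of -0.21 (adjusted p = 0.124, limma), and Cyp21a1 of -0.14 (adjusted p = 0.23, limma).

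**Figure D4:**
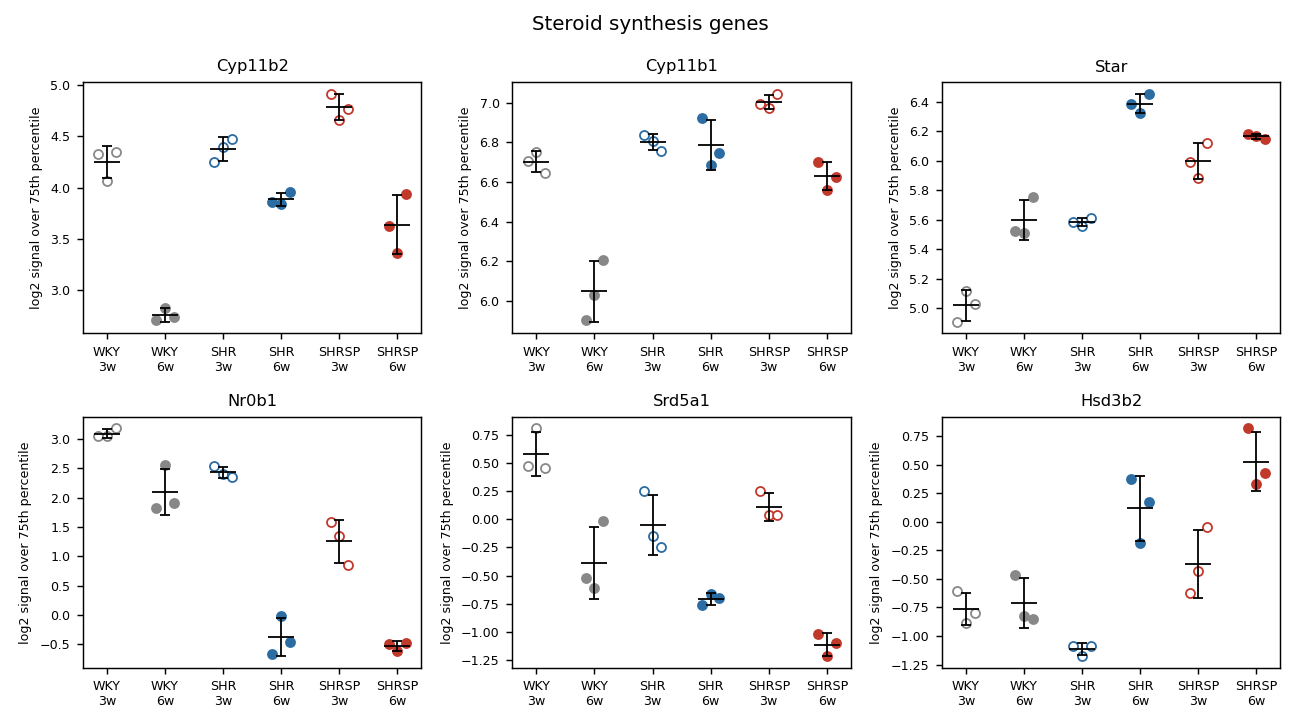
Level (log2 signal over the 75th percentile of the array, vertical axis) of Cyp11b2, Cyp11b1, Star, Nr0b1, Srd5a1 and Hsd3b2 in each group of 3 arrays; open points are 3 weeks, filled points 6 weeks, and bars the mean ± SD. The SHRSP arrays of 6 weeks lie under those of 3 weeks for Cyp11b2, Cyp11b1, Nr0b1 and Srd5a1 and above them for Hsd3b2, while Star differs by 0.17.

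Genes of the zona glomerulosa moved in both directions, 5 higher and 6 lower of 19 tested, with a median of -0.23 as labelled and 0.007 averaged over SHR and SHRSP. Without the 1 gene kept apart 5 were higher and 5 lower as labelled, with a median of -0.029. Cacna1d, a calcium channel that drives aldosterone release, read -4.83, -4.69 and -4.81 at 3 weeks and -6.0, -5.71 and -5.68 at 6 weeks, a change of -1.01 ± 0.10 (SE, adjusted p = 6.39e-06, limma). Shh, the hedgehog signal of the outer cortex, fell by 0.69 on the log2 scale, the angiotensin receptor gene Agtr1a by 0.54 and the potassium channel Kcnk9 by 0.50. Agtr1b, the other type 1 angiotensin receptor, rose by 0.79. Smoc1, a matrix protein, rose from -4.95, -4.79 and -4.78 to -3.93, -3.57 and -3.47 (adjusted p = 0.000196, limma), and Lef1, a transcription factor of the Wnt pathway, by 1.07.

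Of 38 genes of the renin-angiotensin system and blood pressure control 9 were called higher and 11 lower, with a median of -0.16. Without the 2 genes kept apart 7 were higher and 11 lower, with a median of -0.19. The largest of these falls was that of Agt, the angiotensinogen gene (-2.54, adjusted p = 0.000203, limma). Averaged over SHR and SHRSP the change of Agt was -1.19, and against the arrays labelled SHR 3w it was -0.39. Adm, which encodes the vasodilator adrenomedullin, read 0.54, 0.66 and 0.69 at 3 weeks and 2.13, 2.45 and 2.08 at 6 weeks, a change of 1.59 ± 0.19 (SE, adjusted p = 3.91e-05, limma). This rise was larger than those of 0.52 in SHR and 0.50 in WKY (adjusted p = 0.0219 and 0.0215, limma). The endothelin receptor genes Ednrb (0.85) and Ednra (0.74) rose. The adrenergic receptor gene Adra1b (-1.14), the cyclooxygenase Ptgs1 (-1.25) and the neuronal nitric oxide synthase Nos1 (-1.30) fell. In this list the change differed from that of WKY for 4 genes in the higher and 9 in the lower direction, beside background shares of 3.73% and 6.36%.

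The genes of cell division and DNA replication were mostly lower at 6 weeks. Of 52 tested, 40 were called lower and 1, the kinase gene Cdk2 (0.36), higher, with a median of -0.85. Averaged over SHR and SHRSP, 45 were lower and 2 higher, beside 20.2% and 15.5% of all genes tested, with a median of -0.83. Against the arrays labelled SHR 3w the median was -0.42. In WKY it was -0.05. Promoters of Cdk1, the kinase of mitotic entry, Top2a, the topoisomerase of condensing chromosomes, and Ccnb2, a mitotic cyclin, are shown because genes of this kind are known to carry the CHR element TTTGAA and CCAAT boxes. They are the 250 bases before the RefSeq start on GRCr8, at chr20:19265043-19265292 on the plus strand, chr10:84473094-84473343 on the minus strand and chr8:79981659-79981908 on the minus strand, written 5′ to 3′ along the gene, with matches to either motif, on either strand, in capitals.
Cdk1: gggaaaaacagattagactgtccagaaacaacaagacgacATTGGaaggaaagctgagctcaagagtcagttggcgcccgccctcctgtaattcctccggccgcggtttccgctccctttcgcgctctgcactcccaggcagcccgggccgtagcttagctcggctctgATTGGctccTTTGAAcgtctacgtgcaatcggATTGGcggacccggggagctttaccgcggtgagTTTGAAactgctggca
Top2a: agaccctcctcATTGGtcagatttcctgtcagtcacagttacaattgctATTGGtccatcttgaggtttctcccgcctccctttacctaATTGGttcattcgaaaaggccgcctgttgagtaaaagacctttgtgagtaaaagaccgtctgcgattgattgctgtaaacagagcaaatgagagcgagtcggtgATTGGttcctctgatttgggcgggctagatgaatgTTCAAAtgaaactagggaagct
Ccnb2: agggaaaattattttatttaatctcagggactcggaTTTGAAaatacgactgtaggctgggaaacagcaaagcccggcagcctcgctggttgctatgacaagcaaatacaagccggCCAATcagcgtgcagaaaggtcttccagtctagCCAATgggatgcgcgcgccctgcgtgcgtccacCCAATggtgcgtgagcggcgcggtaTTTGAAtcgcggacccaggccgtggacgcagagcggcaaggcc

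CCAAT, searched on both strands, was in 27 of 40 members of the list with a promoter sequence (67.5%). A gene was counted where any of its promoters had a match. Counted in this way, CCAAT was in 36.3% of the 11502 tested genes with a promoter sequence. Counted by promoter, it was in 34.0% of all 33469 promoters of that length. TTTGAA was in 11 of the 40 (27.5%), in 11.7% of the tested genes and in 16.2% of all promoters. Among the members called lower the shares were 65.5% and 27.6%. A match describes these letters and is no evidence of binding.

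Aurka, a kinase of the mitotic spindle, read 1.02, 0.82 and 0.74 at 3 weeks and -0.68, -0.14 and -0.54 at 6 weeks, a change of -1.32 ± 0.12 (SE, adjusted p = 2.81e-06, limma). Its change in WKY was -0.06, and the difference passed the test (adjusted p = 0.000534, limma). Top2a read -1.38, -1.09 and -1.88 at 3 weeks and -2.83, -2.11 and -3.20 at 6 weeks (adjusted p = 0.00277, limma), again without overlap. Cdk1 changed by -1.24 and Ccnb2 by -0.96. Ccnb1, the main mitotic cyclin, read -2.21, -1.92 and -2.44 at 3 weeks and -3.11, -2.51 and -3.63 at 6 weeks. The mitotic kinase gene Pbk (-1.51), the kinesin Kif20a (-1.44), the S phase cyclin Ccne1 (-1.25) and the replication helicase subunits Mcm5 (-1.20) and Mcm7 (-0.56) fell as well. For 12 genes of the list the change was lower than in WKY, beside a background share of 6.36%. The summed level of the list (log2) was 5.0 to 5.37 at 3 weeks and 4.42 to 4.77 at 6 weeks in SHRSP, and 4.60 to 4.84 on the arrays labelled SHR 3w.

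Growth factor and imprinted genes fell in 12 and rose in 5 of 24 cases, with a median of -0.45. H19, the imprinted non-coding RNA of fetal growth, changed by -2.74 (adjusted p = 4.22e-05, limma) and its neighbour Igf2 by -1.24, from -1.42, -0.94 and -1.16 to -2.34, -2.57 and -2.32. Igfbp2, an IGF-binding protein, fell from 5.67, 5.52 and 5.65 to 4.61, 4.28 and 4.64 (-1.10 ± 0.10, SE). Plagl1 (-1.26), an imprinted zinc finger gene, Dio3 (-1.52), the deiodinase that inactivates thyroid hormone, Gpc3 (-1.07) and Sgce (-0.71) fell too. Igf1 went the other way, from 3.00, 3.25 and 2.99 at 3 weeks to 5.67, 5.45 and 5.16 at 6 weeks, a change of 2.35 ± 0.24 (SE, adjusted p = 8.6e-06, limma). Its rise was larger than that of 1.12 in WKY (adjusted p = 0.0348, limma). The rise of Igf1 in SHR, 2.10, was not shown to differ from that in SHRSP (adjusted p = 0.647, limma).

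Of 40 collagen and matrix genes 28 were called lower and 3 higher, with a median of -0.75 in SHRSP, -0.82 averaged over SHR and SHRSP and -0.57 in WKY. Col1a1, a chain of type I collagen, read 3.84, 4.05 and 3.81 at 3 weeks and 2.83, 2.53 and 2.33 at 6 weeks (-1.34 ± 0.24, SE, adjusted p = 0.000768, limma). Col3a1 (-1.22), Col5a2 (-0.98), the fibrillin gene Fbn2 (-1.72) and the crosslinking enzyme Loxl2 (-0.84) fell with it. Nid1, the basement membrane protein nidogen, rose from -0.55, -0.39 and -0.09 to 1.46, 1.03 and 1.13. Its change of 1.55 ± 0.17 (SE) differed from that of -0.42 in WKY (adjusted p = 0.000281, limma). The change of Nid1 in SHR, 1.04, was not shown to differ from that in SHRSP (adjusted p = 0.183, limma). Lox (0.71) and the laminin chain Lamb1 (0.64) were the other rises. Markers of the capsule and fibroblasts, which make this matrix, were called lower in 9 of 14 genes, among them Pdgfra (-0.88) and the hedgehog target Gli1 (-0.81). Their summed level (log2) was 5.28 to 5.50 at 3 weeks and 4.07 to 4.52 at 6 weeks, and the part of these cells in the matrix result was not tested.

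**Figure D5:**
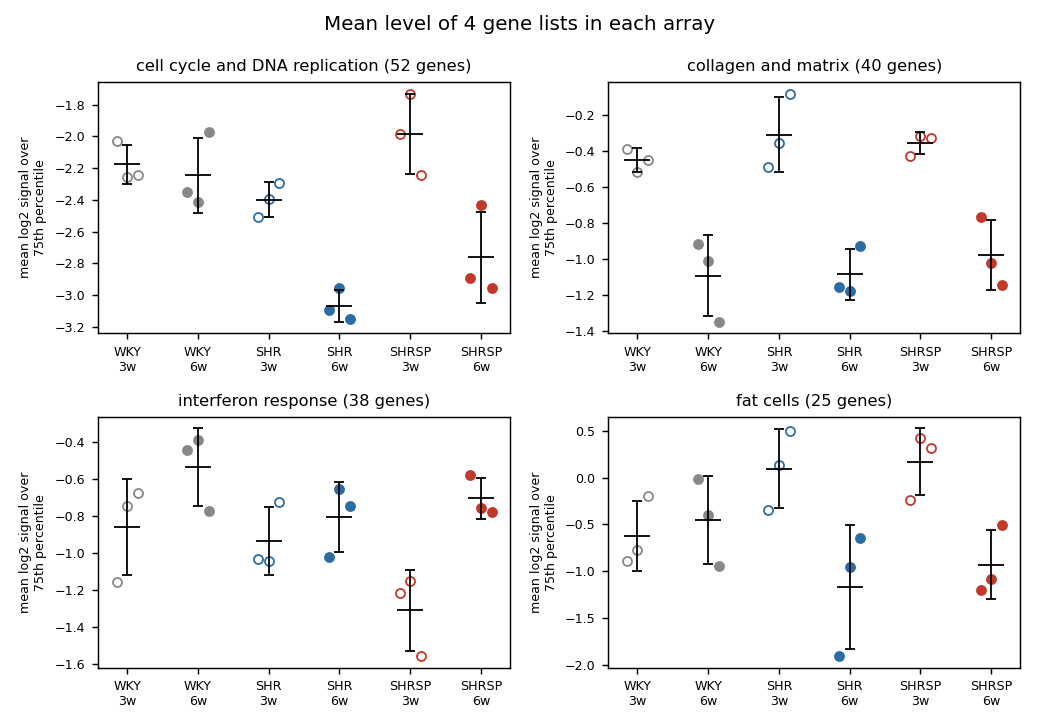
Mean level (log2 signal over the 75th percentile of the array, vertical axis) of the tested genes of 4 lists in each array, by group; open points are 3 weeks, filled points 6 weeks, and bars the mean ± SD. In SHRSP the cell cycle, matrix and fat lists lie lower and the interferon list higher at 6 weeks, without overlap of the ages. The ages overlap in WKY for the cell cycle, interferon and fat lists, and in SHR for the interferon list.

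Markers of fat cells were lower as well, 13 of 25 called lower, with a median of -1.07 in SHRSP and 0.12 in WKY. Pck1, an enzyme of glycerol and glucose synthesis, read 1.80, 1.82 and 1.98 at 3 weeks and -1.17, -1.19 and -0.92 at 6 weeks (-2.96 ± 0.59, SE, adjusted p = 0.00179, limma). Elovl3, a fatty acid elongase of brown fat, read -5.10, -4.61 and -4.09 at 3 weeks and -7.06, -6.95 and -6.62 at 6 weeks. Dio2, the deiodinase that activates thyroid hormone, fell by 2.13 on the log2 scale, the hormone-sensitive lipase Lipe by 1.18 and the transcription factor Cebpa by 1.32. The defining markers Ucp1 (-2.06, adjusted p = 0.0607), Plin1 (-1.11, adjusted p = 0.0922) and Adipoq (-0.81, adjusted p = 0.131) did not pass the test in limma. The summed level of the list (log2) was 7.03 to 7.81 at 3 weeks and 6.45 to 7.01 at 6 weeks, so the ranges lay close together. The part of fat around the gland in the changes of lipid genes, such as Lipe, Pck1, Pdk4 and Cd36 (-0.79), was not tested. Red cell markers were called lower in 6 of 8 genes, with Tfrc, the transferrin receptor, at -1.87 and Alas2, the haem synthesis enzyme of red cells, at -0.99.

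Interferon response genes were higher at 6 weeks, 20 higher and 2 lower of 38 tested, with a median of 0.56. Averaged over SHR and SHRSP 15 were higher and 2 lower, with a median of 0.37, and against the arrays labelled SHR 3w the median was 0.15. In WKY it was 0.30. The promoters of Cxcl10, an interferon-induced chemokine, Oasl2, a member of the oligoadenylate synthetase family, and Ifi27, an interferon-induced mitochondrial protein, are shown because such genes are known to carry the interferon-stimulated response element. They are the 250 bases before the RefSeq start on GRCr8, at chr14:15988816-15989065 on the plus strand, chr12:47383186-47383435 on the minus strand and chr6:128355062-128355311 on the plus strand, written 5′ to 3′ along the gene, with that element in capitals, which was searched as GAAA, any pair of bases and GAAA again, on either strand.
Cxcl10: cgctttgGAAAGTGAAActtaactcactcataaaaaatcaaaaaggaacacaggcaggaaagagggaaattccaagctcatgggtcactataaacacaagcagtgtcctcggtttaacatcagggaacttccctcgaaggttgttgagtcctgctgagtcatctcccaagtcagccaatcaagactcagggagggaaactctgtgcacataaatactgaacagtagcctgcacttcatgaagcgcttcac
Oasl2: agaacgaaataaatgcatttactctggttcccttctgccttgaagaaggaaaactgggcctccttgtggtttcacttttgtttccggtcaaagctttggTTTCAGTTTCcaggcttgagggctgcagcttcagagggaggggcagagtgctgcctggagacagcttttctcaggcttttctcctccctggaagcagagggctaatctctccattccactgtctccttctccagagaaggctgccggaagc
Ifi27: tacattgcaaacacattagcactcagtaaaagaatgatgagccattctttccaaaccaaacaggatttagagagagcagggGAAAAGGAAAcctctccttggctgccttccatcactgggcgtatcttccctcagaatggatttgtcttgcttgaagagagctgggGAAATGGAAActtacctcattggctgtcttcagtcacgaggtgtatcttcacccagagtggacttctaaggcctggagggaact

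The element was in 19 of 30 members of the list with a promoter sequence (63.3%) and in 12 of the 16 of these called higher (75%). Counted by gene in the same way, it was in 2.90% of all tested genes with a promoter sequence. Counted by promoter, it was in 3.41% of all promoters of that length. Cxcl10 changed by 1.64 and Oasl2 by 1.14. Ifi27 read 4.62, 4.70 and 4.30 at 3 weeks and 6.05, 5.64 and 5.79 at 6 weeks, a change of 1.29 ± 0.18 (SE, adjusted p = 0.000105, limma). Oasl read -5.94, -6.28 and -6.36 at 3 weeks and -4.41, -4.78 and -5.11 at 6 weeks (adjusted p = 0.000173, limma), but its difference against the arrays labelled SHR 3w was -0.13. The guanylate-binding protein gene Gbp4 (2.24), the ubiquitin-like modifier Isg15 (2.05), Rtp4 (1.67), Ifit3 (1.34) and the transcription factor Irf7 (1.16) rose. The summed level of the list (log2) was 7.35 to 7.49 at 3 weeks and 7.63 to 7.71 at 6 weeks in SHRSP, and 7.28 to 7.56 on the arrays labelled SHR 3w.

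Antigen presentation genes were called higher in 8 and lower in 2 of 26 cases, with a median of 0.14. B2m, the light chain of class I molecules, rose from 4.72, 4.70 and 4.68 to 5.11, 5.22 and 5.25 (0.49 ± 0.08, SE). The immunoproteasome subunit Psmb8 (0.62) and the peptide-loading chaperone Tapbp (0.56) rose, and RT1-M3-1, a non-classical class I gene, fell by 0.70 on the log2 scale. Macrophage markers were higher in 5 and lower in 2 of 23 cases, 30.4% called beside 29.0% of all genes, with a median of -0.16. Cd163 (-1.21) and the mannose receptor Mrc1 (-0.83), both scavenging receptors, were the markers that fell. Cd14, a co-receptor for bacterial lipopolysaccharide, rose from -0.20, -0.27 and -0.33 to 1.32, 1.5 and 1.04. The Fc receptor Fcgr3a (1.55), Mpeg1 (1.47, with a value on 2 of 3 arrays at 6 weeks) and the scavenger receptor Msr1 (1.05) were also higher, and Msr1 differed from its change in SHR of -0.77 (adjusted p = 0.000334, limma). The summed level of macrophage markers (log2) was 5.17 to 5.31 at 3 weeks and 5.03 to 5.62 at 6 weeks, overlapping ranges, and lymphocyte markers were higher in 2 and lower in 2 of 16 cases. The part of these cells in the interferon result was not tested.

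Of 18 genes that respond to glucocorticoids 3 were called higher (16.7%) and 7 lower (38.9%), and the change was lower than in WKY for 4 and higher for 0, beside 6.36% and 3.73% of all genes. Fkbp5, a co-chaperone of the glucocorticoid receptor that is induced by it, read 1.75, 1.73 and 1.95 at 3 weeks and 0.25, 0.37 and 0.16 at 6 weeks, a change of -1.55 ± 0.11 (SE, adjusted p = 2.8e-07, limma). Its change was -0.13 in SHR and 0.01 in WKY, and both differences passed the test (adjusted p = 3.1e-05 and 5.29e-05, limma). Zbtb16, another induced gene, read -3.69, -3.70 and -3.16 at 3 weeks and -6.82, -5.98 and -6.89 at 6 weeks. Pdk4, the kinase that restrains pyruvate oxidation, changed by -2.82, while the metallothionein Mt2A rose by 1.30, beside 1.14 in WKY.

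Of 28 immediate early genes 1 was called higher (3.57%) and 5 lower (17.9%), the latter close to the 18.4% of all genes, with a median of -0.40 in SHRSP and 0.42 in WKY. For 9 the change was lower than in WKY, beside 6.36% of all genes. Myc, a transcription factor of cell growth, read 2.09, 1.43 and 1.90 at 3 weeks and 0.14, -0.61 and -0.35 at 6 weeks, a change of -2.08 ± 0.26 (SE, adjusted p = 4.77e-05, limma). Fosl1 (-3.23), Maff (-1.62), Arc (-1.38) and Klf4 (-0.80) fell, and Gadd45b, a stress-induced growth arrest gene, rose by 1.46. Fos, the first of these genes to be induced in most cells, had a change of -0.76 (adjusted p = 0.261, limma). The time of day and the handling of the animals are not given in the labels used here.

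Cholesterol genes moved in both directions as labelled, 9 higher (27.3%) and 7 lower (21.2%) of 33, or 9 and 6 without the 1 gene kept apart. Averaged over SHR and SHRSP 16 were higher and 6 lower, beside 15.5% and 20.2% of all genes tested. The median was -0.015 in SHRSP, 0.26 averaged over SHR and SHRSP and 0.64 in WKY. The sign of the SHRSP median was positive under median and quantile scaling. Insig1, which holds back the activation of the sterol regulatory factor SREBP and is itself one of its targets, read 1.63, 1.47 and 1.93 at 3 weeks and 0.15, -0.02 and -0.06 at 6 weeks, a change of -1.66 ± 0.21 (SE, adjusted p = 5.45e-05, limma). In WKY Insig1 rose by 1.51, and the difference passed the test (adjusted p = 4.79e-05, limma). The synthase Hmgcs1 (-0.89) fell. The late enzymes of synthesis Tm7sf2 (1.82), Dhcr7 (0.76) and Ebp (0.53) rose. For 8 genes of the list the change was lower than in WKY, beside a background share of 6.36%.

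The chromaffin and catecholamine genes were called higher in 4 and lower in 3 of 35 cases (20% beside 29.0% of all genes), with a median of -0.075 whose sign was positive under median and quantile scaling. Without the 1 gene kept apart 3 were higher and 3 lower. Pcsk1n, an inhibitor of prohormone cleavage, read 2.30, 2.34 and 2.74 at 3 weeks and 0.85, 0.89 and 0.64 at 6 weeks, and it fell in WKY (-1.52) and SHR (-1.58) as well. Gch1, the first enzyme towards the cofactor that tyrosine hydroxylase needs, fell by 0.76 on the log2 scale. Pnmt, which turns noradrenaline into adrenaline, changed by -0.34 (adjusted p = 0.0452, limma), but its adjusted p was 0.0756 after quantile normalization and 0.222 with median scaling. Averaged over SHR and SHRSP the change of Pnmt was -0.077 (adjusted p = 0.507, limma), and against the arrays labelled SHR 3w the difference was 0.25 (adjusted p = 0.143, limma). Over all alternatives this p ran from 0.00648 to 0.507 (limma). Th (-0.26, adjusted p = 0.148) and Dbh (-0.32, adjusted p = 0.186), the enzymes before it, did not pass the test in limma. The transcription factors Gata2 (0.64) and Gata3 (0.45) and Pts (0.44), another enzyme of the cofactor, rose.

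In the remaining lists single genes moved more than the medians. Of 39 chaperone and unfolded protein response genes 7 were higher (17.9%) and 10 lower (25.6%) as labelled, with a median of -0.14. The small heat shock protein Hspb1 was at 1.19 and the stress transcription factor Atf4 at -0.96. Averaged over SHR and SHRSP 11 were higher and 4 lower, beside 15.5% and 20.2% of all genes tested, with a median of 0.062. For 15 the change was lower than in SHR and for 0 higher, beside 7.48% and 4.45% of all genes. Of 51 respiratory chain genes 9 were lower (17.6%, near the 18.4% of all genes) and 1 higher, with small changes such as those of Ndufs3 (-0.37) and Uqcrfs1 (-0.34). Of 43 glutathione and antioxidant genes 5 were higher (11.6%) and 8 lower (18.6%), near the shares of 10.5% and 18.4% over all genes. Sod3, the extracellular superoxide dismutase, rose from 3.53, 3.73 and 3.66 to 5.08, 5.39 and 5.0, and the glutathione transferases Mgst2 (1.45), Gstp1 (0.92) and Gstk1 (0.81) rose. The transferase Gstm2 (-1.10), the peroxidases Gpx7 (-0.69) and Gpx3 (-0.66) and the catalase Cat (-0.48) fell. The rises of Sod3 and Mgst2 were larger than in WKY (adjusted p = 0.016 and 0.00363, limma). Of 18 circadian clock genes 5 were higher and 4 lower, among them Rora (-1.38) and Tef (0.93). Endothelial markers were lower in 10 and higher in 1 of 24 cases, as in Pecam1 (-0.42) and Tek (-0.57).

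The change with age in SHRSP differed from that in WKY for 2097 genes (10.1%), 775 higher (3.73%) and 1322 lower (6.36%), and from that in SHR for 2481 genes (11.9%), 926 higher (4.45%) and 1555 lower (7.48%). The split of the first count was 37.0% higher here and 50.6% after quantile normalization, and that of the second 37.3% and 57.7%. These comparisons share the SHRSP arrays. Slc2a5, the fructose transporter, rose from -4.08, -3.83 and -4.00 to -1.91, -2.22 and -2.23 in SHRSP, with changes of -0.74 in WKY and 0.07 in SHR. P2ry2, a receptor for extracellular ATP, rose from -3.96, -4.04 and -3.76 to -1.10, -1.38 and -1.53, with changes of 0.13 in WKY and 1.84 in SHR, the latter called (adjusted p = 7.84e-05, limma) and not shown to differ from SHRSP (adjusted p = 0.16, limma). Noct, a nocturnally expressed phosphatase, fell from -0.56, -0.56 and -0.21 to -3.83, -3.68 and -3.16, with changes of 1.01 in WKY and -1.76 in SHR, the latter called (adjusted p = 0.000704, limma) and not shown to differ from SHRSP (adjusted p = 0.0527, limma). Hspa1b, an inducible heat shock protein of the HSP70 family, read -0.14, -1.02 and -0.83 at 3 weeks and -2.91, -2.80 and -3.07 at 6 weeks, with changes of 1.41 in WKY and 0.98 in SHR. Ass1, the argininosuccinate synthase, rose from -1.53, -1.34 and -0.18 to 2.52, 1.99 and 1.73, with changes of 2.68 in WKY and -0.12 in SHR. Every difference from SHR rests on the labels SHR and SHRSP at both ages, which the genes kept apart concern.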

How the data were processed

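Adrenal RNA of 3 strains at both ages was measured on 18 one-colour Agilent arrays. The deposited intensity is the linear processed signal of Agilent Feature Extraction 10.5.1.1, per the file headers and the submitters' processing notes. Arrays were not scaled against each other, so the scaling sets which genes count as higher. The authors' series table held the same values, with a difference of 0. From these intensities log2 minus the 75th percentile of the array was computed, without control and outlier spots. Each gene is represented by its brightest probe, and genes bright enough in some group (all 3 arrays well above background) were tested. The model, with a mean for each of the 6 groups and every array in the fit, was run in limma 3.58.1 (lmFit and eBayes, R 4.3.3), with 12 residual and 2.12 prior degrees of freedom. Python 3.11.15 with pandas 2.3.3 read the tables. Promoters came from RefSeq. The scripts were tested on simulated data. The number of arrays limits the precision.

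The comparison, gene lists and alternatives were chosen with earlier results of these data known. Named genes have a symbol. They are the 10 largest rises and falls, and the 6 largest each way among those kept apart, of genes called without overlap between the ages; up to 4 called members per list by adjusted p; and, whatever their result between the SHRSP ages, the 5 largest called differences each way against WKY and SHR and a few fixed genes. Some of these genes are not reported here. Other list members named were chosen after their values were seen. A bound ("at least") sets the mean of the bright group against a floor on each dim array: the dimmest signal that was still well above background, or the probe's own signal where that was larger. Replicate numbers did not pair the SHRSP arrays: the deviations of same-numbered arrays correlated at 0.043, -0.078 and -0.29.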

Additional observations from a re-analysis of the deposited data

Results flagged for a closer look

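The change with age differed between SHRSP and WKY for 2097 genes and between SHRSP and SHR for 2481 genes, each by a test of the difference itself in limma. Against WKY, the difference of the changes (SHRSP minus WKY, log2) was 3.31 for Spaca1, 2.59 for Slc2a5, 2.45 for P2ry2, 2.39 for Gucy2g and 2.31 for Spp1. It was -4.64 for Zbtb16, -4.47 for Sult1e1, -4.13 for Sbk2, -4.12 for Noct and -3.67 for Hspa1b. Spaca1 and Gucy2g at 3 weeks and Sult1e1, Sbk2 and Irf4 at 6 weeks were not well above background on any SHRSP array. Nor was Spaca1 on any WKY array, Irf4 on any SHR array or Or8g36b on any SHR array of 3 weeks. The values of these genes thus depend on signals near background. Spaca1 was well above background on all 3 arrays only in SHRSP at 6 weeks, and Irf4 only in SHRSP at 3 weeks. Both were tested only because of the group in which they were high, so their differences are a description. Against SHR, the difference (SHRSP minus SHR, log2) was 4.75 for Aspg, 3.46 for Perm1, 3.43 for Fabp3, 3.32 for Jph3 and 3.22 for Ass1. It was -3.95 for Hes1, -3.89 for Irf4, -3.76 for Rorb, -3.26 for Or8g36b and -3.25 for Hspa1b. The changes within SHRSP of Aspg, Fabp3, Jph3, Hes1, Rorb and Or8g36b did not pass the test. Of 138 other named genes, the change differed from WKY for 52 and from SHR for 38, the genes kept apart included, beside 10.1% and 11.9% of all genes tested. These genes were named largely for their changes in SHRSP, so the counts are a description.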

How the results depend on the processing

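The count of genes called between the SHRSP ages, 6022, lay between 5323 and 7774 over the other scalings, background, filter and blocks tried, was 4690 from the SHRSP arrays alone and 4563 to 5309 when an array was left out. The block for scan day was chosen after seeing the data. The difference from SHR, 2481 genes, became 4189 with slide as a fixed block and 4476 as a random block, and 1675 to 2792 when an array was left out. The difference from WKY, 2097 genes, became 3362 with slide as a random block, 3180 with scan day as a block, and 1304 to 2113 when an array was left out, the lowest without WKY 3w replicate 2. The 345 genes kept apart became 627 with slide as a random block, 69 at 2-fold, and 227 to 353 when an array was left out, the lowest without SHR 3w replicate 2. With the replicate block these counts were 6283, 2755, 2375 and 380, and the numbers pair no samples. The cause of these moves was not tested.

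Among values called as labelled or in the alternative, the change averaged over SHR and SHRSP turned sign for Hba-a3 (-0.053), Uts2 (-0.91), Vegfb (0.081), Zfp597 (0.077), Hes1 (1.05) and Ephx2 (-1.41). Against the arrays labelled SHR 3w it turned for Hba-a3 (-0.60), Uts2 (-0.71), Zfp597 (0.28), Oasl (-0.13), Pnmt (0.25) and Ephx2 (-0.71). Called in neither, Jph3 (-0.63), Rorb (0.38) and Or8g36b (0.35) turned sign in the average, and Jph3 (-0.63), Hes1 (0.17), Or8g36b (0.83) and Th (0.12) against SHR 3w. Over all named genes and settings, 2853 values kept their call and, where called, their direction, 92 lost the call, 26 gained it and the 12 above turned. Of the list medians 461 moved by less than 1 SD between arrays and 52 by more. Of these larger moves, 18 were in the difference from the arrays labelled SHR 3w, each in a different list. A further 9 were in the change averaged over SHR and SHRSP. Signals near background give bounds only.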
